A study of Drosophila melanogaster with 4 samples.

Results

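Cytosolic ribosomal protein genes were followed through the cell types of the adult *Drosophila* eye, and through neurons and glia captured with it. They were taken as all gene symbols of the count tables that start with RpL (large subunit) or RpS (small subunit), which gave 92 of 13964 listed genes, 54 for the large and 38 for the small subunit. The ribosome is the machine that reads mRNA and joins amino acids into protein. Its large subunit holds the site where the peptide bond forms, its small subunit decodes the mRNA, and a lateral stalk made of P0, P1 and P2 proteins recruits the translation factors. Nearly every cell transcribes the whole set, because a ribosome needs each protein in fixed proportion, and loss of 1 copy of many of these genes gives flies the Minute phenotype of slow growth and thin bristles. Some members exist in *Drosophila* as a pair of genes, and several second copies are known from the germline.

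The eyes came from *Canton-S* flies, a wild-type strain. Males were aged to 1 day (1D), 3 days (3D) or 7 days (7D) and females to 1 day, and each group was 1 library made from pooled, dissected eyes that were dissociated with collagenase in the presence of the transcription inhibitor Actinomycin D. UMIs (unique molecular identifiers) mark single captured RNA molecules, and their counts per gene and cell barcode are the values used. No age and no sex has a second library, so ages and sexes are described without a test, and age or sex and library cannot be told apart.

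The libraries held 16275, 8701 and 6335 barcodes called as cells in the 1D, 3D and 7D males and 8765 in the females, with 98373676, 44430651, 17654226 and 74438691 UMIs in that order. After limits on genes and mitochondrial share, 13788, 7990, 5897 and 7058 cells remained. Between 12 and 37 barcodes were shared by a pair of libraries, and these were kept. Cells were clustered without the ribosomal protein genes, so the members played no part in forming the classes, and marker genes gave 8 classes of clusters, glia-like, neuron-like, cone-like, primary pigment-like, R8-like, R7-like, R1-6-like and a joint class for the secondary with the tertiary pigment cells. R1-6 cells are the outer photoreceptors, R7 and R8 are the inner ones, the pigment cells shield each unit eye, and the cone cells secrete the lens. For brevity the suffix is left out from here on. R1-6 cells numbered 4097, 3251 and 2411 in the 1D, 3D and 7D males, R7 cells 783, 478 and 437, R8 cells 806, 588 and 516, and secondary and tertiary pigment cells 3749, 949 and 1038. Primary pigment cells (104, 81 and 63) and cone cells (32, 20 and 25) were few, and none were named in the female library. Neurons numbered 1924, 640 and 623 and glia 529, 302 and 252. The study treats neurons and glia with markers such as *fne* and *repo* as non-eye cells, and left them out of its own eye data. Clusters at the *ninaE* level of R1-6 (*ninaE* is their rhodopsin) that also held an inner rhodopsin but too few other R7 or R8 markers for a name (971, 765 and 532 cells in the male libraries) stayed outside all classes, as did 793, 916 and 0 cells in unnamed clusters. The R7 and R8 classes themselves held *ninaE* RNA, at 6.30%, 5.93% and 1.37% of the UMIs of R7 and 9.05%, 8.91% and 6.03% of those of R8 in the 1D, 3D and 7D males, and its part in their values was not tested. In the female library 1 R1-6 cluster of 249 cells held *Pdh*, a pigment cell gene, at 14268 CPM (UMIs of a gene or list as parts of 1e6 UMIs of the cells), against 298 to 754 CPM in the other R1-6 clusters. Its most raised genes included *retinin*, *Nplp3* and *sxe2*, as in male primary pigment clusters, but no primary marker was raised enough to count for naming. It may thus hold some primary pigment cells. Without this cluster the member share of the female R1-6 cells was 10.31% in place of 10.28%. Male R1-6 clusters rich in *Pdh* were kept as well. At 1D clusters of 1003 and 284 cells held 10641 and 13337 CPM, and at 7D a cluster of 350 cells held 9545 CPM. The part of this pigment cell RNA in the male R1-6 values was not tested.

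The marker lists were highest in the classes they name, with values of other lists beside them. Primary pigment cells held the 7 primary markers at 3749, 4181 and 5421 CPM in the male libraries. They held those of secondary and tertiary pigment cells at 70424, 129011 and 113636 CPM, so that these 2 kinds of pigment cell were not cleanly parted. The primary pigment cells also held the 8 photoreceptor markers at 27961, 3606 and 34504 CPM at 1D, 3D and 7D. The part of this photoreceptor RNA in their values was not tested. Neurons held the photoreceptor markers at 10323, 8205 and 7220 CPM, above their own 6 markers at 4860, 3491 and 3888 CPM. Its part in the neuron values was not tested either. In the 7D cone cells the summed level of the 7 R7 markers was 19916 CPM, above the 15175 CPM of the 9 cone markers, whereas in the 1D and 3D cone cells the R7 markers reached 367 and 1002 CPM and the cone markers 23071 and 20908 CPM. The cone cells also held the secondary and tertiary pigment markers, at 36605, 32950 and 8854 CPM at 1D, 3D and 7D. At 1D and 3D these exceeded the cone markers. Photoreceptor markers were at 10747.5, 17593 and 54277 CPM in the cone cells. The 7D cone values below therefore come from 25 cells that carried much R7 and other photoreceptor RNA. The part of RNA of other classes in the cone values was not tested at any age.

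Of the 92 members, 90 had a UMI in some library and 2, *RpL10Aa* and *RpL22-like*, had none. A further 6 had fewer than 200 UMIs over all 4 libraries, namely *RpL7-like* (4), *RpL37b* (12), *RpS5b* (41), *RpS19b* (30), *RpS28a* (1) and *RpS28-like* (9). *RpS10a*, with 343 UMIs, was the remaining member that did not pass the filter on low counts. The 83 members that passed include 50 for the large and 33 for the small subunit. Because passing depends on the counts, statements on the 83 do not cover the other 9.

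The ribosomal protein genes took between 5.32% and 17.1% of the UMIs of a class in the male libraries. Neurons had the lowest mean share, 7.01% ± 1.28 (SD, n = 3 male libraries of different age), with 5.75% at 1D, 6.97% at 3D and 8.32% at 7D. The mean share was 11.4% ± 1.21 in R1-6, 9.66% ± 0.805 in R7 and 11.1% ± 1.42 in R8. Secondary and tertiary pigment cells had 11.7% ± 1.33 and glia 11.5% ± 1.82. Neurons thus lay below photoreceptors, secondary and tertiary pigment cells and glia in each of the 3 male libraries and in the female one, where neurons had 4.96% and the others between 7.19% and 10.99%. R7 lay below R8 in all 4 libraries. The mean shares of R1-6, R8, secondary and tertiary pigment cells and glia differed by less than their SD over libraries, as long as all UMIs made up the total. Primary pigment cells had 7.40%, 5.32% and 11% at 1D, 3D and 7D, and cone cells 6.69%, 11.5% and 17.1%, so that these small classes spread over much of the range of all others.

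**Figure D1:**
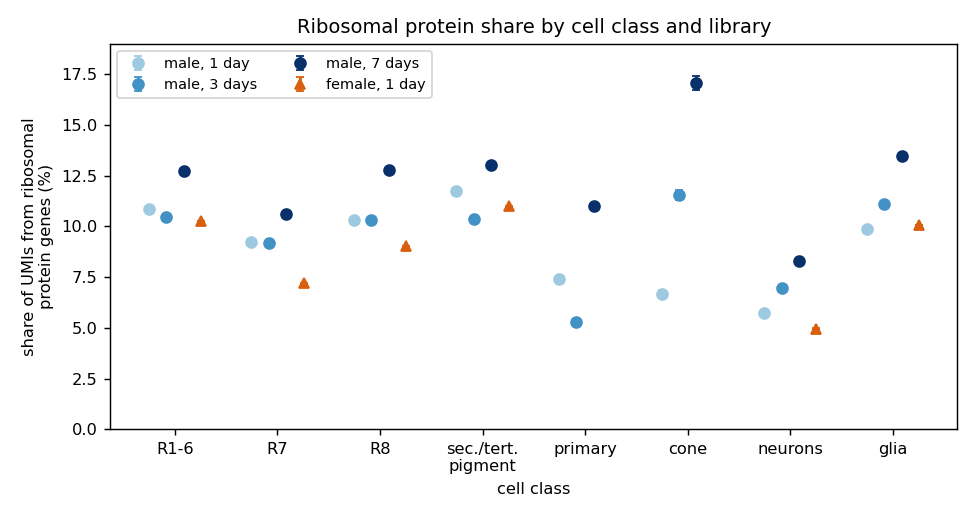
Share of UMIs (percent, y axis) that came from the 92 ribosomal protein genes in each cell class (x axis), with a point per library and exact binomial 95% intervals, which are mostly smaller than the points. Neurons sit at 4.96% to 8.32%, the 7D library is the highest of the male libraries in every class, and cone cells range from 6.69% to 17.1%.

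With mitochondrial and rhodopsin genes left out of the total, the mean share was 14.5% in R1-6, 12.3% in R7, 14.4% in R8, 12.3% in secondary and tertiary pigment cells, 12.9% in glia and 7.69% in neurons. On that total R1-6 had 13.4%, 13.3% and 16.8% at 1D, 3D and 7D and secondary and tertiary pigment cells 12.4%, 10.8% and 13.7%, so that R1-6 lay higher in each male library, whereas on all UMIs it lay lower at 1D and 7D.

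The division between the subunits was nearly fixed. Large-subunit genes gave 57.6% to 58.1% of the member UMIs in R1-6, 59.2% to 61.5% in neurons and 60.6% to 62.2% in cone cells, with the other classes between 58.3% and 60.1%. The 10 members with most UMIs in a class and library gave 23.1% to 28.3% of the member UMIs, so no small group of genes carried the set. *RpL27A*, a large-subunit protein, was among the 3 members with most UMIs in all 8 classes, at 3169 ± 472 CPM in R1-6, 2296 ± 185 CPM in neurons and 3796 ± 942 CPM in glia (SD, n = 3). *RpL38* and *RpS25* completed the top 3 in R1-6, R7 and R8. *RpS29* was in the top 3 of secondary and tertiary pigment, primary pigment and cone cells. The stalk gene *RpLP1* was in the top 3 of primary pigment cells, cone cells and glia, *RpS15* in that of glia, and *RpL41* and *RpL38* in that of neurons. These are counts of molecules captured at the 3′ end, not divided by length, and capture can differ between genes. Over the 83 members the log2 mean level correlated between classes with Pearson's r of 0.886 (cone cells and neurons) to 0.996 (R7 and R8), a description across genes whose classes share libraries.

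In single cells most of the set had a UMI, and deeper classes had more of it, with any free RNA counted in. The median R1-6 cell of the 1D males had 7018 UMIs, 737 of them from 79 members, and the median secondary and tertiary pigment cell had 1474 UMIs, 172 of them from 64 members. The interquartile range of the member share was 9.23% to 12.1% over the 1D R1-6 cells and 4.47% to 6.48% over the 1D neurons, and these ranges did not overlap.

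Differences between classes were tested on UMIs summed per male library and class, with edgeR's quasi-likelihood test, library as a block, TMM scaling and Benjamini-Hochberg adjustment over 7655 genes, with 0.05 as the limit on the adjusted p for a call. The spread behind the p-values was estimated for each gene over all 8 classes together, after the library block was taken out. It thus reflects how class differences vary between 3 libraries of different age, and is not specific to the classes compared. TMM sets a reference level from most genes, so a call here is relative to that reference, whereas the shares above are relative to all UMIs. Under TMM the median log2 fold change over all genes tested was −0.20 in the comparison of inner with outer photoreceptors, −0.20 in that of photoreceptors with neurons and −0.41 in that of cone with primary pigment cells, and it was within 0.1 of 0 in the other 4.

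Photoreceptors against neurons gave the most calls. In all, 82 of the 83 members were higher in photoreceptors, beside 27.1% of all genes called higher, and the median log2 fold change was 1.56 against −0.20 over all genes. With library totals in place of TMM 56 members were higher and 1 lower, with a median of 0.65 against −1.07 over all genes. No member was called lower by edgeR's quasi-likelihood test under TMM, none was lower at an unadjusted p under 0.05, and DESeq2 called 82 higher and none lower. The exception was *RpLP0-like*, which is known in yeast as a ribosome assembly factor rather than a stalk protein.

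*RpS23*, a small-subunit protein near the decoding centre, had 1168, 947 and 1193 CPM in R1-6 cells at 1D, 3D and 7D and 342, 300 and 323 CPM in neurons. The groups did not overlap, and the log2 fold change was 2.54 ± 0.22 (SE). *RpL7A*, a large-subunit protein, had 2398, 2320 and 2801 CPM in R1-6 and 703, 893 and 1098 CPM in neurons, a log2 fold change of 2.31 ± 0.19. *RpS15Ab* (2.72 ± 0.19) and *RpS24* (2.08 ± 0.20) were the other members with the largest change, and each was higher in 3 of 3 libraries. At the other end *RpL23* and *RpL11*, both large-subunit proteins, were higher under TMM by only 0.65 and 0.67 on the log2 scale. In CPM both were lower in R1-6 than in neurons at 3D and 7D. *RpL23* had 1044, 882 and 1117 CPM in R1-6 and 906, 1197 and 1404 CPM in neurons. *RpL11* had 181, 135 and 214 CPM in R1-6 and 173, 184 and 218 CPM in neurons. *RpL23* overlaps the photoreceptor gene *inaD* on the opposite strand.

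Counts were also scaled to the total of the ribosomal protein genes in place of TMM. This scaling was chosen after seeing the data, it leaves the differences between members as they are, and it centres the set so that some members must lie on each side. It called 19 members higher and 17 lower in photoreceptors than in neurons, beside 4.85% and 81.4% of all genes. *RpS15Ab* (1.21), *RpS23* (1.02) and *RpL7A* (0.79) led those above it and *RpLP0-like* (−1.48), *RpL23* (−0.88), *RpL11* (−0.85) and *RpL40* (−0.74) those below it, in log2.

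**Figure D2:**
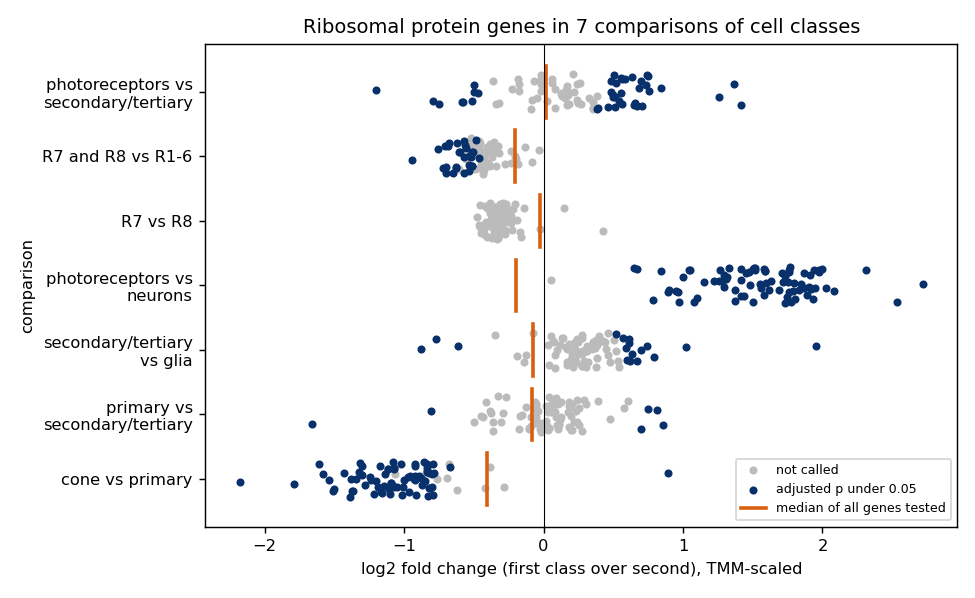
Log2 fold change under TMM scaling (x axis) of the 83 ribosomal protein genes tested in 7 comparisons of cell classes (y axis), with a point per gene, dark where the adjusted p was under 0.05, and a bar at the median of all genes tested. In photoreceptors against neurons 82 members lie above 0 and are called, while with library totals in place of TMM no member is called in R7 and R8 against R1-6 and the balance of calls turns in photoreceptors against secondary and tertiary pigment cells, in the pigment comparisons and in cone against primary pigment cells.

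Photoreceptors against secondary and tertiary pigment cells divided the set. Under TMM 32 members were higher in photoreceptors and 9 lower, beside 35.4% and 34.8% of all genes, with a median of 0.24. With library totals 4 were higher and 14 lower, with a median of −0.05, and DESeq2 called 22 and 19. Without the 3D males the counts were 13 and 5. The overall direction was therefore set by the scaling, and only the members far from the rest are described.

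*RpL40* encodes ubiquitin fused to a large-subunit protein, and the fusion is cut after translation into the 2 parts. Its gene lies at chr2L:4227699-4228561 on the plus strand in the Ensembl annotation of BDGP6. In secondary and tertiary pigment cells it had 3025, 3133 and 2834 CPM at 1D, 3D and 7D, and 2940 CPM in the females. In R1-6 it had 995, 1046 and 1389 CPM, in glia 898, 998 and 1060 CPM, in neurons 1041, 1205 and 1267 CPM, and in primary pigment cells 591, 449 and 946 CPM. Every secondary and tertiary pigment value exceeded every value of the other classes. The log2 fold change was −1.20 ± 0.16 for photoreceptors against secondary and tertiary pigment cells (adjusted p = 5.20e-07), 1.95 ± 0.22 for secondary and tertiary pigment cells against glia (adjusted p = 6.55e-08) and −1.66 ± 0.22 for primary against secondary and tertiary pigment cells (adjusted p = 2.59e-06). All 3 were called under each of the 14 alternatives, with values from −1.49 to −1.09, 1.58 to 2.16 and −2.24 to −1.51.

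*RpS27A*, the other ubiquitin fusion and a small-subunit protein, did not share this pattern. It had 2327 CPM in R1-6, 2512 CPM in secondary and tertiary pigment cells and 2330 CPM in glia as means over the male libraries. Its log2 fold change for photoreceptors against secondary and tertiary pigment cells was −0.02 ± 0.18 (adjusted p = 0.936). Its share of the member UMIs was between 1.49% and 2.62% over all classes and libraries, while that of *RpL40* was 2.17% to 3.02% in secondary and tertiary pigment cells and 0.760% to 1.81% in the others.

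Other members were lower in photoreceptors than in secondary and tertiary pigment cells. *RpS20*, a small-subunit protein, had 2500, 2485 and 2757 CPM there and 1453, 1334 and 1276 CPM in R1-6 (log2 fold change −0.75 ± 0.16, adjusted p = 2.47e-04), and in glia it had 1627, 2084 and 2391 CPM. *RpL22*, a large-subunit protein that also has a germline copy, had 663, 715 and 820 CPM there and 351, 336 and 541 CPM in R1-6 (−0.59 ± 0.16). At 3D it was higher still in glia, at 947 CPM. *RpLP0-like* was lower in photoreceptors by 0.79 ± 0.12 on the log2 scale, and glia had more of it than secondary and tertiary pigment cells in all 4 libraries (23.5, 38.3 and 38.3 CPM against 22.0, 32.8 and 33.2 CPM in the males). *RpS20*, *RpL22* and *RpLP0-like* were called in this direction under all 14 alternatives.

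The reverse pattern was seen for *RpL5*, *RpS15Ab* and *RpL15*. *RpL5* binds the 5S rRNA together with *RpL11*. It had 258, 250 and 435 CPM in R1-6 and 217, 124 and 149 CPM in secondary and tertiary pigment cells, and the groups did not overlap. Its log2 fold change was 1.26 ± 0.20 (adjusted p = 5.81e-06), and the differences in the single libraries were 0.63, 1.44 and 1.85. *RpL11* did not go with it and had means of 177 CPM in R1-6 and 201 CPM in secondary and tertiary pigment cells. *RpS15Ab*, the lesser copy of its pair, had 47.6, 88.1 and 96.9 CPM and 25.8, 35.9 and 52.2 CPM (1.42 ± 0.17). *RpL15* changed by 0.84 ± 0.17, with 1284, 846 and 943 CPM and 1236, 530 and 545 CPM, so that its CPM were close at 1D. All 3 were called under each of the 14 alternatives. Scaled to the total of the ribosomal protein genes, 25 members were higher and 15 lower in photoreceptors, beside 30.4% and 37% of all genes.

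**Figure D3:**
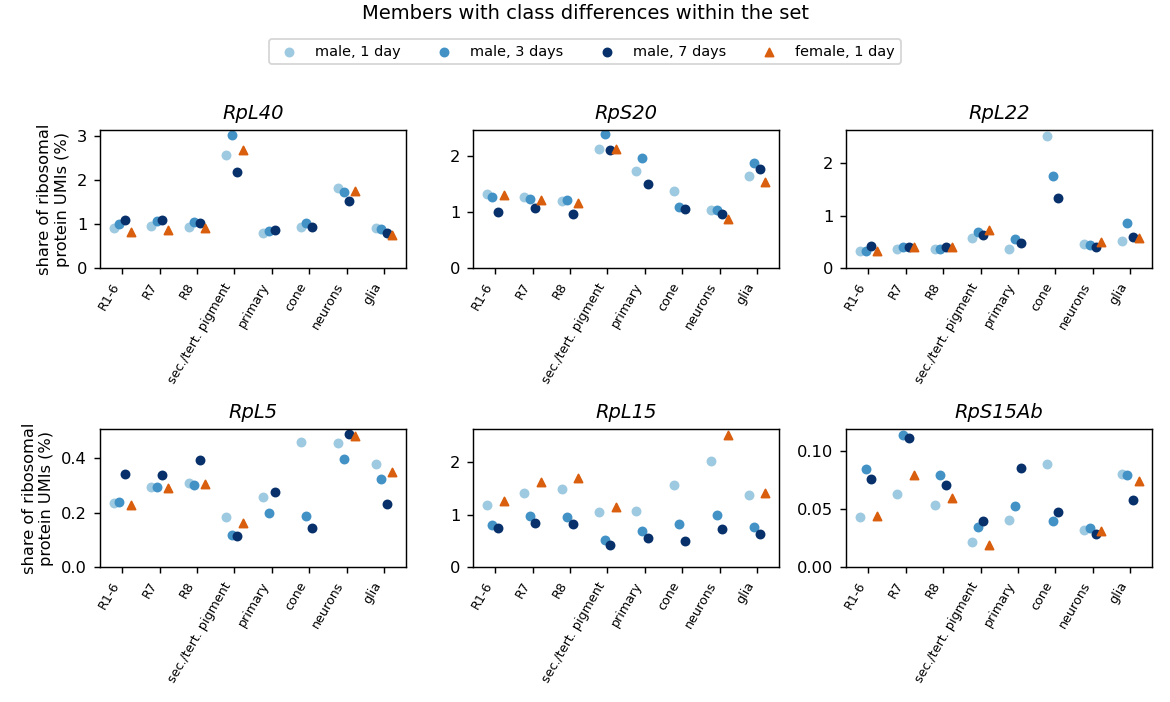
Share of the ribosomal protein UMIs (percent, y axis) taken by 6 members in each cell class (x axis), with a point per library. *RpL40* and *RpS20* are highest in secondary and tertiary pigment cells, where *RpL5* and *RpS15Ab* are low, and *RpL22* is highest in the few cone cells.

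Against glia, secondary and tertiary pigment cells had 14 members higher and 3 lower, beside 24.5% and 28.8% of all genes, with a median of 0.28. With library totals 2 were higher and 3 lower. Without the 1D or without the 3D males 3 were higher. Among those lower were *RpS15Ab* (−0.88 ± 0.20) and *RpL5* (−0.77 ± 0.23), which were also low in secondary and tertiary pigment cells against photoreceptors, a comparison that shares these cells. The call of *RpL5* was lost without the 3D males (adjusted p = 0.19). After *RpL40*, the largest increases were those of *RpL7A* (1.02 ± 0.21), the stalk gene *RpLP0* (0.79 ± 0.17) and *RpS3A* (0.74 ± 0.25), the last of which was 1.49 in the 1D library and 0.15 in the 7D one. Glia also held the pigment markers at 11692 to 16433 CPM summed over 11 genes in the male libraries, against 252171 to 294083 CPM in the secondary and tertiary pigment cells. Photoreceptor markers were at 14281, 14658 and 5403 CPM in glia at 1D, 3D and 7D, above the glia markers at 5024, 3626 and 2514 CPM. The part of this pigment and photoreceptor RNA was not tested. Scaled to the total of the ribosomal protein genes, 3 members were higher and 8 lower, beside 14% and 38.9% of all genes.

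Primary against secondary and tertiary pigment cells had 4 members higher and 2 lower, beside 12.9% and 12.5% of all genes. With library totals none was higher and 24 were lower. The 2 lower members were *RpL40* (above) and *RpL21*, a large-subunit protein (−0.81 ± 0.22), whose call was lost without the 1D or without the 3D males (adjusted p = 0.0775 and 0.214). Among the higher were *RpS15Ab* (0.86 ± 0.25), *RpS30* (0.81 ± 0.24) and *RpL5* (0.75 ± 0.24), none of which was called with the gates on marker UMIs in place of clusters. Without the 7D males no member was called higher. Scaled to the total of the ribosomal protein genes, 7 were higher and 2 lower, beside 12.4% and 10.9% of all genes.

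Cone against primary pigment cells rested on 20 to 32 cone cells a library. Under TMM 1 member was higher and 73 were lower in cone cells, beside 4.69% and 13% of all genes, with a median of −1.02. With library totals 21 were higher and none lower, with a median of 0.55, and with the gates 1 was higher and none lower. The direction of the set in cone cells thus turned with the scaling, and the shares given above likewise put cone cells under primary pigment cells at 1D and over them at 3D and 7D.

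*RpL22* was the member that stood apart whatever the scaling. It had 1685, 2020 and 2289 CPM in cone cells at 1D, 3D and 7D and 272, 297 and 532 CPM in primary pigment cells, and no other class in any library exceeded 947 CPM (glia at 3D). Its share of the member UMIs was 1.34% to 2.52% in cone cells and 0.321% to 0.851% in the other classes. The log2 fold change under TMM was 0.89 ± 0.21 (adjusted p = 0.0046), and it ranged from 0.78 to 2.49 over the alternatives. The call was lost without any 1 of the 3 libraries (adjusted p = 0.0596, 0.0501 and 0.0544). The counts behind these levels were 170, 131 and 113 UMIs. The members with the largest decrease under TMM were *RpLP0-like* (−2.18 ± 0.50), *RpS15Aa* (−1.79 ± 0.20), *RpS20* (−1.61 ± 0.22) and *RpL21* (−1.58 ± 0.24). *RpLP0-like* had only 9.91, 15.4 and 20.3 CPM in cone cells, and its call was lost under 8 of the 14 alternatives. In CPM *RpS20* and *RpL21* were lower in cone than in primary pigment cells at 1D and higher at 3D and 7D. Scaled to the total of the ribosomal protein genes, *RpS15Aa* and *RpS20* were still called lower (−0.71 and −0.56). Under this scale *RpL18*, *RpS14a* and *RpS5a* were also higher, by 0.61, 0.74 and 0.78. In all 4 members were higher on that scale and 2 lower, beside 15.4% and 2.38% of all genes.

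Inner against outer photoreceptors showed a common shift with little structure. Under TMM 29 members were lower in R7 and R8 than in R1-6 and none higher, beside 12.3% and 6.14% of all genes, and all 83 had negative values, with a median of −0.46 against −0.20 over all genes. At an unadjusted p under 0.05 the numbers were 61 and 0, and DESeq2 called 27 lower and none higher. No member was called with library totals (median −0.12), 3 were lower with RLE size factors, and 1 was lower without the 3D or without the 7D males. *RpS13* led, with 1003, 669 and 681 CPM in R1-6, 705, 447 and 347 CPM in R7 and 765, 476 and 390 CPM in R8, a log2 fold change of −0.94 ± 0.19. Its R1-6 value exceeded those of R7 and R8 in every library. *RpS9* (−0.76 ± 0.22), *RpL10Ab* (−0.72 ± 0.18) and *RpL10* (−0.71 ± 0.18) followed. Scaled to the total of the ribosomal protein genes, no member was called, beside 15.3% of all genes higher and 1.45% lower, and *RpS13* was at −0.49 (adjusted p = 0.0509).

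Between R7 and R8 edgeR's quasi-likelihood test called no member, beside 1.2% of all genes called higher and 0.81% lower in R7. At an unadjusted p under 0.05, 1 was higher and 6 were lower, and DESeq2 called 2 lower. Of the 83 values 81 were negative (median −0.32). The 2 positive ones were *RpLP0-like* (0.42) and *RpS15Ab* (0.15), of which *RpLP0-like* was called with the total of the ribosomal protein genes as the scale (0.74), beside 2% of all genes higher and 0.444% lower. With library totals the median was −0.21.

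Gene length and structure were set beside these values. Over the 83 members, Spearman's rho between the log2 fold change and the coding length was between −0.11 and 0.17 in the 7 comparisons, and with the number of exons between −0.20 and 0.13. These are descriptions across genes that share libraries. The median for the small-subunit genes was 1.73 and that for the large-subunit genes 1.49 in photoreceptors against neurons, and 0.35 and 0.17 in photoreceptors against secondary and tertiary pigment cells.

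The stalk genes moved with the set against neurons, where *RpLP0*, *RpLP1* and *RpLP2* had log2 fold changes of 1.08 ± 0.14, 1.58 ± 0.25 and 1.98 ± 0.26 in photoreceptors. Their shares of the member UMIs were not parallel over the classes. Over the 4 libraries *RpLP1* took 2.88% to 3.42% in glia and 1.80% to 2.17% in photoreceptors, ranges that did not overlap. *RpLP2* took 0.625% to 0.911% in neurons and 1.39% to 1.67% in glia. *RpLP0* took 0.586% to 0.932% in secondary and tertiary pigment cells and 0.40% to 0.621% in photoreceptors, and against secondary and tertiary pigment cells it was lower in photoreceptors by 0.50 on the log2 scale.

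Other genes of translation were counted from lists. Of 8 elongation factors, which bring tRNAs and move the ribosome, 6 were higher and none lower in photoreceptors than in neurons by edgeR's quasi-likelihood test, beside 27.1% and 37% of all genes, led by *eEF1beta* (1.95 ± 0.17) and *eEF5* (1.88 ± 0.22). Of 35 initiation factors tested 19 were higher and 3 lower, among them *eIF4EHP*, a cap-binding repressor (−2.43 ± 0.16). Of 72 genes of the mitochondrial ribosome 20 were higher and 27 lower (median −0.26), shares close to those of all genes. Of 14 genes of ribosome assembly 2 were higher, *Myc*, a transcription factor of growth genes (1.23 ± 0.13), and *CG3756*, and 5 were lower, the latter also close to the share of all genes. *Rack1*, a small-subunit component whose symbol does not start with RpS, rose by 1.90 ± 0.19. In photoreceptors against secondary and tertiary pigment cells, 49 of 72 mitochondrial ribosome genes were higher and 4 lower, beside 35.4% and 34.8% of all genes, while *eEF1alpha1* and *eEF1alpha2*, the 2 forms of the factor that delivers tRNAs, changed in opposite directions (−4.14 ± 0.19 and 3.91 ± 0.40). In inner against outer photoreceptors 53 of 72 mitochondrial ribosome genes were lower and none higher, beside 12.3% and 6.14% of all genes.

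The male libraries were set side by side by age. The member share was highest at 7D in every class, with ratios of 7D to 1D of 1.17 in R1-6, 1.15 in R7, 1.24 in R8, 1.11 in secondary and tertiary pigment cells, 1.45 in neurons and 1.36 in glia, and of 1.49 and 2.55 in the small primary pigment and cone classes. At 3D the ratio to 1D was between 0.883 and 1.00 in photoreceptors and secondary and tertiary pigment cells, 1.21 in neurons and 1.13 in glia. The median UMIs per R1-6 cell were 7018 at 1D, 4120 at 3D and 1911 at 7D, and those per neuron 3803, 3357 and 2995, and the part of depth was not tested. The female 1D shares lay below the male 1D ones in all classes but glia.

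Within the set the ratio of 7D to 1D varied. Among members with at least 200 UMIs over both libraries, 57 of 83 in R1-6 had a ratio above 1, beside 34.4% of all genes so chosen, and 26 a ratio below 1. The numbers above 1 were 56 of 82 in R7 (41.4% of all genes), 61 of 82 in R8 (40.6%), 60 of 83 in secondary and tertiary pigment cells (61.1%), 66 of 75 in primary pigment cells (62.2%), 33 of 33 in cone cells (56.5%), 70 of 83 in neurons (52.2%) and 67 of 82 in glia (40.2%). The 3 members with the lowest ratio included *RpS14a* in 6 of the 8 classes and *RpS24*, a small-subunit protein, in 4. *RpS24* had 1012 CPM in R1-6 at 1D, 389 at 3D and 532 at 7D (ratio of 7D to 1D 0.526, exact 95% interval 0.508 to 0.545, counting error only). *RpS2*, a small-subunit protein at the mRNA entry, was among the 3 highest in 4 classes and *RpS21* in 4. *RpS2* had 1330, 2058 and 3110 CPM in R1-6 (ratio 2.34, 2.30 to 2.38) and 1126, 2182 and 2923 CPM in neurons (2.60, 2.52 to 2.68). *RpL15*, a large-subunit protein, had 1236, 530 and 545 CPM in secondary and tertiary pigment cells (0.441, 0.414 to 0.47), and *RpL24-like* had 329, 544 and 779 CPM in R1-6 (2.37, 2.29 to 2.45).

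The females were 1 day old, which allowed a description of which members set both 1D libraries apart. Both 1D libraries also held more UMIs, 98373676 in the males and 74438691 in the females, against 44430651 at 3D and 17654226 at 7D. The part of depth in this separation was not tested. As a share of the member UMIs, 15 of 83 members were higher in both 1D libraries than in the 3D and 7D ones in all 6 classes that the females had, and 8 were lower. By the same measure these patterns held for 8.65% and 1% of 5292 genes with at least 1000 UMIs. In CPM 4 members were higher in both 1D libraries and 12 lower, beside 4.01% and 7.03%. *RpL15* had 1288 CPM in R1-6 and 1256 CPM in secondary and tertiary pigment cells of the females, next to 1284 and 1236 CPM in the 1D males. For *RpS24* the female value in R1-6 was 873 CPM, and for *RpS2* it was 1189 CPM. The 3 members with the lowest and highest ratio in a class also included *RpS9*, *RpS13*, *RpL8*, *RpS30*, *RpL35*, *RpS27*, *RpL39*, *RpL4*, *RpS12* and *RpL41*. *RpS13*, *RpL8* and *RpS9* were among the 15, and *RpS21*, *RpS27*, *RpS12* and *RpS18* among the 8. Over 83 members the log2 change from 1D to 7D in the share of the set correlated between classes with r of 0.618 to 0.948 (21 pairs of 7 classes, without cone cells), which all come from the same 2 libraries. Age and library cannot be told apart.

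**Figure D4:**
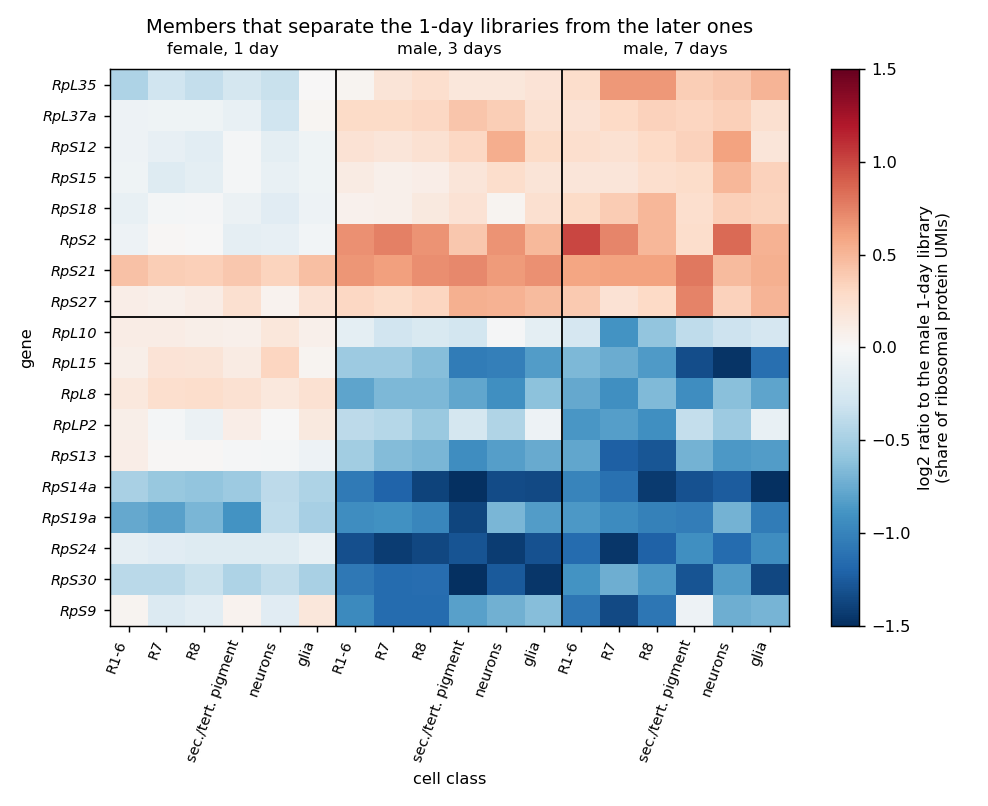
Log2 ratio to the male 1D library of the share of ribosomal protein UMIs (colour), for 18 of the members (y axis), those named in the text, that were higher or lower in both 1D libraries than in the 3D and 7D ones in all 6 classes shown (x axis), chosen for this pattern. *RpS2*, *RpS21* and *RpS27* are raised at 3D and 7D in each class and *RpL15*, *RpS14a*, *RpS24* and *RpS30* are lowered. By this choice the female library lies on the 1D side of the later libraries. It is not always nearer to the male 1D library, as with *RpS19a* and *RpS21* in R1-6.

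Duplicated genes made up a further part of the set. In most pairs 1 copy took nearly all UMIs. *RpL10Ab* and *RpL22* were counted alone, with no UMI of *RpL10Aa* or *RpL22-like*, and *RpL7*, *RpL37a*, *RpS28b*, *RpS5a*, *RpS10b* and *RpS19a* took at least 99% of their pairs in every class and library. *RpS10a* took 0.346% to 0.407% of its pair in neurons of the 4 libraries and at most 0.135% in the other classes. Its level in neurons was low, at 3.72, 5.86 and 5.95 CPM in the 1D, 3D and 7D males and 2.16 CPM in the females. The gene overlaps *tau* on the opposite strand. *RpLP0-like* took 1.97% to 2.38% of its pair in R1-6 and R8 and 4.33% to 5.81% in neurons of the male libraries.

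Pairs with 2 active copies differed between classes and between libraries. *RpS14a* and *RpS14b* lie next to each other on the X chromosome, at chrX:7933742-7934677 and chrX:7934898-7935792, and encode proteins of the same length, 151 residues. In R1-6 *RpS14a* gave 80.2% of the pair at 1D, 66.9% at 3D and 66.0% at 7D, and 79.3% in the females. In neurons it gave 81.0%, 71.5%, 70.4% and 78.7%, and in secondary and tertiary pigment cells 79.4%, 60.5%, 65.3% and 76.9%. Both 1D libraries exceeded the later ones in all 6 classes that the females had. The level of *RpS14a* itself went from 640 CPM in R1-6 at 1D to 295 at 3D and 376 at 7D, and was 430 CPM in the females, while *RpS14b* had 158, 146, 193 and 112 CPM. Reads that fit both copies equally are dropped by the counting program, so the ratio rests on the reads that tell them apart and is uncertain.

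*RpL24-like* is known in yeast and human cells as an assembly factor that keeps the place of *RpL24* in the forming ribosome. It took 27.0%, 44.5% and 43.7% of the pair in R1-6 and 26.8% in the females, and 40.7%, 51.3%, 50.5% and 42.2% in neurons. *RpL34a* took 10.8%, 18.2% and 18.7% in R1-6 and 22.0%, 24.2% and 21.4% in secondary and tertiary pigment cells. It was thus lower in R1-6 in each male library, by less at 3D and 7D than at 1D. *RpS15Ab* took 3.01%, 6.63% and 5.84% in R1-6, 4.66%, 9.10% and 8.33% in R7 and 2.66% to 3.35% in neurons. R7 exceeded R1-6, R8 and neurons in the share of *RpS15Ab* in all 4 libraries, while glia, with 7.64%, 8.78% and 5.81% and 7.33% in the females, exceeded R7 in both 1D libraries and not in the later ones. The 1D cone cells reached 8.45%, but this rests on few UMIs (*RpS15Ab* at 59.5 CPM in 32 cells with 100861 UMIs).

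**Figure D5:**
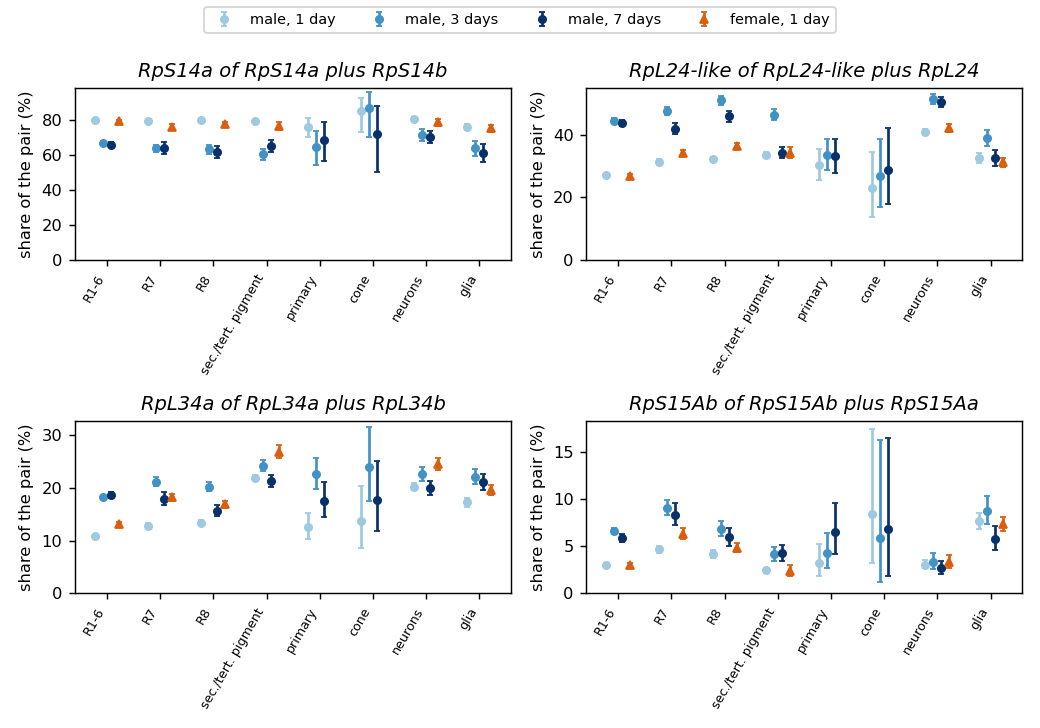
Share of a pair's UMIs (percent, y axis) that came from the named copy in each cell class (x axis), with a point per library and exact binomial 95% intervals. *RpS14a* lies at 75.3% to 81.0% in the 1D libraries and at 60.5% to 71.5% in the later ones in R1-6, R7, R8, neurons, glia and secondary and tertiary pigment cells, and *RpL24-like* is higher at 3D than at 1D in the same classes.

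Of the 92 members 14 lie on the X chromosome, 6 of the large and 8 of the small subunit, and all 14 were among the 83. *RpS3A* is the one on chromosome 4. Between the 1D females and the 1D males the X-linked members had a median log2 ratio of −0.36 in R1-6 and the 69 autosomal ones −0.09, a difference of −0.27. The difference was −0.27 in R7, −0.30 in R8, −0.19 in secondary and tertiary pigment cells, −0.23 in neurons and −0.04 in glia. Over 1316 X-linked and 6212 autosomal genes outside the set it was between −0.08 and 0.01 in the same classes. There was 1 library of each sex, so sex and library cannot be told apart.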

How the data were processed

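Adult eyes were profiled by droplet single-cell RNA-seq in 4 libraries. The authors deposited raw UMI counts per gene and cell barcode, made with Cell Ranger 6.0.1 on the dm6 genome, without removal of free RNA or filtering of cells. Strand-specific 3′ reads were counted per gene, so depth and 3′ capture set the levels. Cells with over 200 genes were kept, up to 3500, 2800, 2700 and 4000 genes and 20%, 25%, 18% and 25% mitochondrial UMIs in the 1D, 3D and 7D males and the females, which is the only treatment of doublets beside an alternative without the tenth of cells with most UMIs. Each library was clustered with Seurat 5.3.0 and sctransform 0.4.2 without the ribosomal protein genes (50 components, resolution 0.8), and the limits for naming clusters were set with the clusters at hand. Rebuilt classes may differ from the study's own.

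UMIs were summed per library and class and tested with edgeR 4.0.16 (R 4.3.3; glmQLFit, filterByExpr, TMM, male libraries as a block), and the code was tested on simulated data. DESeq2 1.42.0 and other scalings, filters, classes and libraries served as alternatives. Shares have exact binomial 95% intervals and ratios of counts exact 95% ones, for counting error only. Named genes were the 4 members with the largest change each way among those past the threshold and changed the same way in every male library, the 3 with the largest ratio each way between 1D and 7D, and duplicated genes. Some items are not reported here. *RpL11*, *RpL23*, *RpS27A* and the stalk genes beyond that rule were named after their values were seen. The members, lists and tests were chosen with earlier results of these data known. Gene positions came from the Ensembl annotation of BDGP6, and all 92 members matched.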

Additional observations from a re-analysis of the deposited data

Results flagged for a closer look

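The difference in the ribosomal protein share between 2 classes took opposite signs in different male libraries in 2 comparisons. Secondary and tertiary pigment cells minus glia was 1.88 percentage points at 1D, −0.74 at 3D and −0.41 at 7D. Cone minus primary pigment cells was −0.70 percentage points at 1D, 6.23 at 3D and 6.08 at 7D, from 20 to 32 cone cells a library. Each age was 1 library, and the difference between ages was not tested.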

How the results depend on the processing

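Of 476 values of single named members under alternatives, none reversed, 64 lost the call and 412 kept direction and call. These members were chosen for a call and for the same direction in every male library. The alternatives use the same libraries, which limits what the lack of reversals can show. The counts of members higher or lower moved more. For photoreceptors against secondary and tertiary pigment cells, the number higher was 16 with RLE size factors, 4 with library totals and 14 with gates on marker UMIs, and the number lower 15, 14 and, with DESeq2, 19. For inner photoreceptors against R1-6, the number lower was 3 with RLE, 0 with library totals, 45 without the tenth of cells with most UMIs, 8 with free RNA taken away and 75 with the female library added. DESeq2 gave 2 lower in R7 than in R8, and library totals 1 lower in photoreceptors than in neurons. For secondary and tertiary pigment cells against glia, the number higher was 9 with RLE, 2 with library totals, 7 with free RNA taken away and 30 with the female library. For primary against secondary and tertiary pigment cells, the number higher was 0 with library totals, 7 with DESeq2 and 0 with gates, and the number lower 24, 5 and 5, and 5 with the female library. For cone against primary pigment cells, the number higher was 21 with library totals, and the number lower 43 with RLE, 0 with library totals and 0 with gates. Scaled to the total of the ribosomal protein genes, which was chosen after seeing the data, the numbers were 15 lower in photoreceptors than in secondary and tertiary pigment cells, 0 lower in inner photoreceptors, 1 higher in R7 than in R8, 19 higher and 17 lower than in neurons, 3 higher and 8 lower than in glia, 7 higher in primary pigment and 4 higher and 2 lower in cone cells. The shares without mitochondrial and rhodopsin genes were 14.5% (R1-6), 12.3% (R7) and 14.4% (R8). The cause of these moves was not tested.

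With a male library left out in turn, the numbers higher and lower were 13 to 31 and 5 to 9 for photoreceptors against secondary and tertiary pigment cells, 0 and 1 to 26 for inner photoreceptors, 0 and 0 for R7 against R8, 82 and 0 against neurons, 3 to 14 and 1 to 3 against glia, 0 to 5 and 1 to 2 for primary pigment and 0 and 29 to 63 for cone cells. The mean share ranged from 10.7% to 11.8% in R1-6, 9.20% to 9.90% in R7, 10.3% to 11.6% in R8, 11.1% to 12.4% in secondary and tertiary pigment, 6.36% to 9.20% in primary pigment, 9.12% to 14.3% in cone cells, 6.36% to 7.64% in neurons and 10.5% to 12.3% in glia. Classes were paired within libraries in every fit through the library block. Between ages or sexes no such pairing exists. No paired analysis was possible because each of these groups is 1 library. Without the female R1-6 cluster rich in *Pdh*, chosen after seeing the data, the numbers of members above and below in both 1D libraries were again 15 and 8, and the X minus autosomal difference was −0.27. The cone sums held 49358 to 100861 UMIs, which limits their precision.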
